A study of Rattus norvegicus with 65 samples.

Results

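The genes described here are 6 targets of the aryl hydrocarbon receptor, AHR: Cyp1a1, Cyp1a2, Cyp1b1, Tiparp, Ahrr and Aldh3a1. They were taken by name, with every probe set that the array annotation assigns to that symbol alone, and they make up 6 of 14217 genes and 7 of 31099 probe sets on the array. Cyp1a1 was the member that moved furthest, about 90.7-fold above control in livers of rats given 2-AAF for the long duration and 96.6-fold with 3MeDAB, whereas with DEN, from the same set, it did not pass the test. Cyp1a2, expressed at high level in every control liver, also rose in 2-AAF long, but far less than Cyp1a1. Cyp1a2 fell in DEN long and DL-Ethionine long, where Cyp1a1 did not pass, and was lowest with DL-Ethionine long, 22.5-fold below control. Cyp1b1 passed the test in no comparison with all rats kept. Aldh3a1 passed against control in 1 group, a call that was lost without 1 rat. Ahrr stayed below the level required for testing in all 65 livers.

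AHR is a ligand-activated transcription factor that waits in the cytosol in a complex with HSP90 chaperones. Flat aromatic ligands release it into the nucleus, where it pairs with ARNT and binds response elements with a GCGTG core in front of its targets. Among these targets are enzymes that oxidise the ligands and proteins that damp the receptor, and in liver the induction of Cyp1a1 is the textbook sign that the receptor is active.

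Liver RNA of 65 male Sprague-Dawley rats, labelled 6 weeks old, was measured on Affymetrix rat arrays, 1 array per rat, and the values are log2 signals. The genotoxic set holds 2-AAF, 3MeDAB and DEN, each in a long and a short group, with 1 control group. The nongenotoxic set holds 1,4-Dioxane, Clofibrate and DL-Ethionine in the same layout, with a control group of its own. Another set, called the test set in the titles, holds DCP, ME, SN and Urethane, long and short, without controls. Each group has 3 rats except DEN short, which has 2. The labels give dose numbers without units for the test set only: 50 for DCP, 300 for ME, 50 for SN and 500 for Urethane, given 3 times in long and 1 time in short groups. The design text lists full compound names without tying them to abbreviations, so the titles' names are used. The list holds, among others, acetylaminofluorene, a dimethylamino azobenzene and diethylnitrosamine. The hours that the labels give for short and long (3 and 72) cannot be matched to the dosing protocol, so only the words are used, and the controls have no time. Vehicle and training doses are not given in the sources used here. The lowest signals of an array differ between the sets, so values of different sets were not set against each other. Differences are on the log2 scale, ± SE from limma, and called means an adjusted p (Benjamini-Hochberg, over every gene tested in that comparison) under 0.05. All compounds of a set share 1 control group, and p-values measure only the spread between these rats.

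The tissue label held: the mean log2 signal of 5 hepatocyte markers lay between 13.8 and 14.4 in every rat. A bulk signal cannot tell fewer cells of a type from less RNA per cell.

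RefSeq promoters on the GRCr8 build, from 250 bases before to 50 after the gene's start, matched 4 of the 6 genes and are shown because AHR acts through the core searched for in them. Capitals mark each GCGTG core or its reverse complement CACGC, and positions count from the start, with the bases before it negative. Cyp1a2 lies at chr8:66978100-66978399 on the minus strand, where it neighbours Cyp1a1, Cyp1b1 at chr6:21094315-21094614, Tiparp at chr2:152063519-152063818 and Ahrr at chr1:30821969-30822268, the last 3 on the plus strand.
Cyp1a2: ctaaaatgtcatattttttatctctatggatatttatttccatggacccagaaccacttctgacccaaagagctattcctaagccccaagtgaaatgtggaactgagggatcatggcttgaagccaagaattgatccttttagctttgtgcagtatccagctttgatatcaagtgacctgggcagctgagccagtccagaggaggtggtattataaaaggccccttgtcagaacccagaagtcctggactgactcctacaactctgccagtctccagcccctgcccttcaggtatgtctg
Cyp1b1: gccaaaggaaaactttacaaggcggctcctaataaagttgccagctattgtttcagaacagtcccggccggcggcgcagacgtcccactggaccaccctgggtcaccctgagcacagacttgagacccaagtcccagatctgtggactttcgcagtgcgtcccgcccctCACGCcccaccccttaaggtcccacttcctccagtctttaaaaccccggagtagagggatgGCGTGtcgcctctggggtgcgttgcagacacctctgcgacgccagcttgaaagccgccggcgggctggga
Tiparp: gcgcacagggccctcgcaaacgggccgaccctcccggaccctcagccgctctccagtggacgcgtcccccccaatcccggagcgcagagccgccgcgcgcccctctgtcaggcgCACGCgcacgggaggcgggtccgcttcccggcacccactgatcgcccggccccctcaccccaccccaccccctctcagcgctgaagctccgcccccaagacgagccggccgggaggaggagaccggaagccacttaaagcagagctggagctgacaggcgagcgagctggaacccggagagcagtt
Ahrr: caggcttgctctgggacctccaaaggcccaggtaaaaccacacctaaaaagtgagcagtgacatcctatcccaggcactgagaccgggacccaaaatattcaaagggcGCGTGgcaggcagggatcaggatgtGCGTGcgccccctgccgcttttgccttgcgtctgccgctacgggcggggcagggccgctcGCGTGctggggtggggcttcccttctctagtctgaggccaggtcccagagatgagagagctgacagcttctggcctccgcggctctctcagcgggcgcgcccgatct
The Ahrr window holds 3 cores, beginning at -142, -117 and -57, and the Cyp1b1 window 2, at -81 and -20. The Tiparp window holds 1 core, at -136, and the Cyp1a2 window has 0. Of 33469 RefSeq promoters of the same length, 29.7% hold at least 1 core on either strand, 10.2% at least 2 and 3.59% at least 3. The longer form TNGCGTG, which contains the core, occurs 1 time each in the Ahrr and Cyp1b1 windows, and in 4.89% of promoters. Promoters with a core had a median of 60.3% G and C, against 51.7% over all promoters, and the share was 63.3% for Ahrr, 60.7% for Cyp1b1, 72.7% for Tiparp and 46.3% for Cyp1a2. These are letter matches in a short window, not binding sites.

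Cyp1a1 encodes the inducible monooxygenase that oxidises polycyclic aromatic ligands of AHR. Its log2 signal was 11.0, 12.2 and 13.2 in the 3 rats of 2-AAF long and 13.3, 10.1 and 11.6 in those of 2-AAF short, against 5.75, 5.38 and 5.72 in the genotoxic control. In 3MeDAB it was 12.6, 12.0 and 12.1 at the long and 11.8, 11.0 and 10.9 at the short duration. Every rat given either compound lay above every control rat of its set, by more than 4 log2 units. The 2-AAF rats spread over about 3 log2 units at the short duration, far more than the controls. Against the control the difference was 6.50 ± 0.60 in 2-AAF long (adjusted p = 1.88e-09), 6.07 ± 0.60 in 2-AAF short (adjusted p = 2.51e-07), 6.59 ± 0.60 in 3MeDAB long (adjusted p = 1.53e-10) and 5.62 ± 0.60 in 3MeDAB short (adjusted p = 1.55e-06). DEN gave a different picture. Cyp1a1 was 5.42, 6.03 and 5.55 in DEN long and 5.71 and 6.88 in DEN short, overlapping the controls at both durations, with differences of 0.05 ± 0.60 and 0.68 ± 0.67 (adjusted p = 0.969 and 0.55). In 3MeDAB short just 0.918% of all genes were called, so Cyp1a1 was among few, whereas in 3MeDAB long 53.6% were. The shares were 32.1% in 2-AAF long, 8.49% in 2-AAF short, 16.7% in DEN long and 17.6% in DEN short.

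In the nongenotoxic set Cyp1a1 rose with the short duration of 2 compounds. It was 7.86, 9.44 and 9.81 in 1,4-Dioxane short, 8.40, 9.62 and 7.79 in Clofibrate short, and 7.37, 7.25 and 8.72 in DL-Ethionine short, against 5.93, 6.67 and 6.26 in the control. No rat of these 3 short groups overlapped the controls. The difference was 2.75 ± 0.60 for 1,4-Dioxane short (6.71-fold, adjusted p = 0.00632) and 2.31 ± 0.60 for Clofibrate short (4.97-fold, adjusted p = 0.0305), while 1.49 ± 0.60 for DL-Ethionine short did not pass (adjusted p = 0.154). At the long duration the groups overlapped the controls: Cyp1a1 was 6.24, 6.17 and 6.23 with 1,4-Dioxane, 6.24, 6.86 and 7.58 with Clofibrate and 6.23, 7.64 and 6.56 with DL-Ethionine. Those differences were -0.08, 0.61 and 0.52, and none passed (adjusted p = 0.985, 0.842 and 0.491). Of all genes, 5.5% were called in 1,4-Dioxane short, 2.9% in Clofibrate short and 5.15% in DL-Ethionine short, and 0.164%, 0.136% and 53.1% in the same compounds' long groups. The Clofibrate short call was lost with only the 2 compared groups in the fit and without any of 5 of its 6 rats, at adjusted p up to 0.213.

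**Figure D1:**
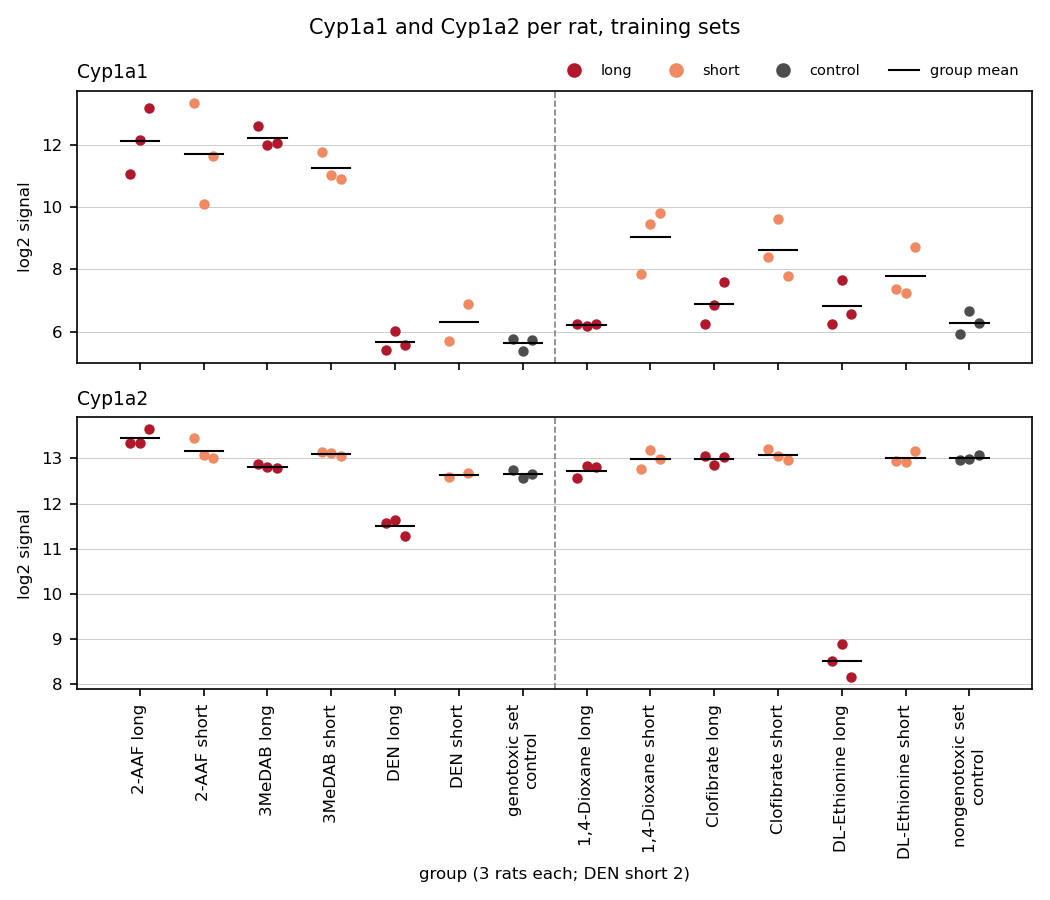
Log2 signal of Cyp1a1 (top) and Cyp1a2 (bottom) in each rat of the genotoxic set (left of the dashed line) and the nongenotoxic set (right), with long, short and control groups coloured and a bar at each group mean. Cyp1a1 was highest in the 2-AAF and 3MeDAB rats (10.1 to 13.3), and Cyp1a2 lowest in DL-Ethionine long (8.16 to 8.89).

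Cyp1a2 encodes the monooxygenase that hydroxylates aromatic amines and is made by hepatocytes around the central vein without an inducer. Its signal was 13.4, 13.3 and 13.6 in 2-AAF long and 13.4, 13.1 and 13.0 in 2-AAF short, against 12.7, 12.6 and 12.6 in the control. Both groups lay clear of the control, and Cyp1a2 rose by 0.79 ± 0.14 in 2-AAF long (1.73-fold, adjusted p = 5e-05) and by 0.52 ± 0.14 in 2-AAF short (1.44-fold, adjusted p = 0.0142). The short call was lost without rat 1 of 2-AAF short (adjusted p = 0.13), the rat with the highest Cyp1a1 of its group, and without control rat 2. With 3MeDAB the signal was 12.9, 12.8 and 12.8 at the long and 13.1, 13.1 and 13.0 at the short duration, again without overlap with the controls. These differences of 0.17 ± 0.14 and 0.46 ± 0.14 did not pass (adjusted p = 0.301 and 0.0985). Cyp1a2 thus stood 1.12-fold and 1.37-fold above control where Cyp1a1 stood 96.6-fold and 49.2-fold above it. Whether either probe set was saturated cannot be read from these values.

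Against control, the falls of Cyp1a2 came in groups where Cyp1a1 did not pass. In DEN long it was 11.6, 11.6 and 11.3, below all controls, a difference of -1.15 ± 0.14 (adjusted p = 1.63e-07), whereas DEN short, at 12.6 and 12.7, overlapped them (-0.02 ± 0.15, adjusted p = 0.947). In DL-Ethionine long it was 8.50, 8.89 and 8.16, against 13.0, 13.0 and 13.1 in the nongenotoxic control. Every treated rat was about 4 log2 units lower, and the difference was -4.49 ± 0.14 (adjusted p = 3.15e-22). The short group of that compound, at 12.9, 12.9 and 13.2, overlapped the control (adjusted p = 1). In the 4 groups of 1,4-Dioxane and Clofibrate, Cyp1a2 ran between 12.6 and 13.2 and none passed. The nearest was 1,4-Dioxane long at -0.28 ± 0.14 (adjusted p = 0.523). Neither of the 2 falls was lost under any alternative tried.

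**Figure D2:**
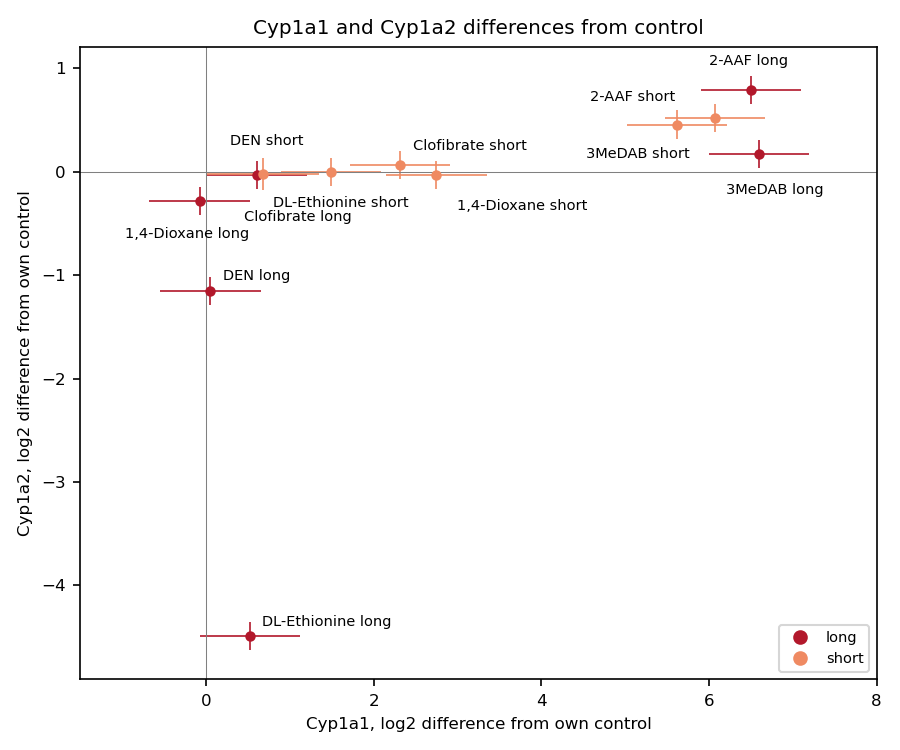
Log2 difference from the control of the same set, Cyp1a1 across and Cyp1a2 up, for 12 treated groups, with bars of 1 SE. The 2-AAF and 3MeDAB groups lie far to the right (5.62 to 6.59) with small Cyp1a2 differences, and DEN long and DL-Ethionine long lie low (-1.15 and -4.49) at Cyp1a1 differences of 0.05 and 0.52.

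Aldh3a1, an aldehyde dehydrogenase gene that is nearly silent in the healthy rat liver and induced there by dioxin-like ligands, rose in 1 group. Its signal was 5.07, 5.26 and 6.36 in 2-AAF long and 6.26, 5.04 and 4.83 in 2-AAF short, against 4.96, 4.91 and 4.83 in the control. In each group 1 rat stood more than 1 log2 unit above its mates, and these were the rats with the highest Cyp1a1 of their groups. The long difference was 0.67 ± 0.24 (adjusted p = 0.0322) and the short one 0.47 ± 0.24 (adjusted p = 0.239). Without rat 3 of 2-AAF long the call was lost, at 0.27 and adjusted p = 0.389, and it was lost without any 1 of the 3 control rats (adjusted p 0.0538 to 0.0891). Only those 2 of 41 arrays put Aldh3a1 above the level needed for testing (log2 6.03), so it was tested through those 2 rats alone. With no such level required the adjusted p of the long difference was 0.0392. With every probe set tested and no filter the call was lost (adjusted p = 0.0554). The call was also lost with only the compared groups in the fit (adjusted p = 0.184) and with each training set alone (adjusted p = 0.121). In the other 10 training groups the differences of Aldh3a1 ran from -0.02 to 0.23 and none passed. The test set rats had 4.43 to 5.45, and there it was not tested.

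Tiparp encodes a mono-ADP-ribosyltransferase that modifies AHR and limits its activity. In 2-AAF short its signal was 11.4, 9.20 and 8.96, against 8.76, 9.46 and 9.34 in the control. A single rat, number 1, stood 2 log2 units above the rest, and the second Tiparp probe set read 8.46 in that rat and 5.21 and 5.67 in its mates. The same rat had the highest signal of its group for Cyp1a1 (13.3), Cyp1a2 (13.4), Cyp1b1 (7.53) and Aldh3a1 (6.26). The SD of its differences from its mates over all probe sets averaged 0.307, with 0.303 and 0.289 for the mates, and its Gapdh 3' minus 5' difference, which RNA quality can move, was 0.476, with 0.966 and 0.602 in the mates. The group difference for Tiparp, 0.67 ± 0.35, did not pass (adjusted p = 0.256). None of the 12 treated groups passed, with differences between -0.46 and 0.67 and adjusted p between 0.256 and 0.994. Control rat 1 was low in both training sets, at 8.76 and 8.74, against 9.34 to 9.62 in the other control rats.

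Cyp1b1, the family member known mainly from tissues outside the liver, ran from 6.35 to 7.60 in the genotoxic and from 6.70 to 7.18 in the nongenotoxic set. Its differences from control lay between -0.26 and 0.12, none passed (adjusted p between 0.261 and 0.997), and treated and control rats overlapped in all 12 groups. Ahrr encodes the repressor that competes with AHR for ARNT and is itself an AHR target. Its signal was 4.08 to 4.66 in genotoxic rats, 4.21 to 4.65 in nongenotoxic rats and 3.25 to 3.89 in test set rats, never reached the level needed for testing, and got no test. In 2-AAF long its signal was 4.23, 4.47 and 4.08, against 4.26, 4.32 and 4.31 in the control, so the groups overlapped where Cyp1a1 was 90.7-fold higher.

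**Figure D3:**
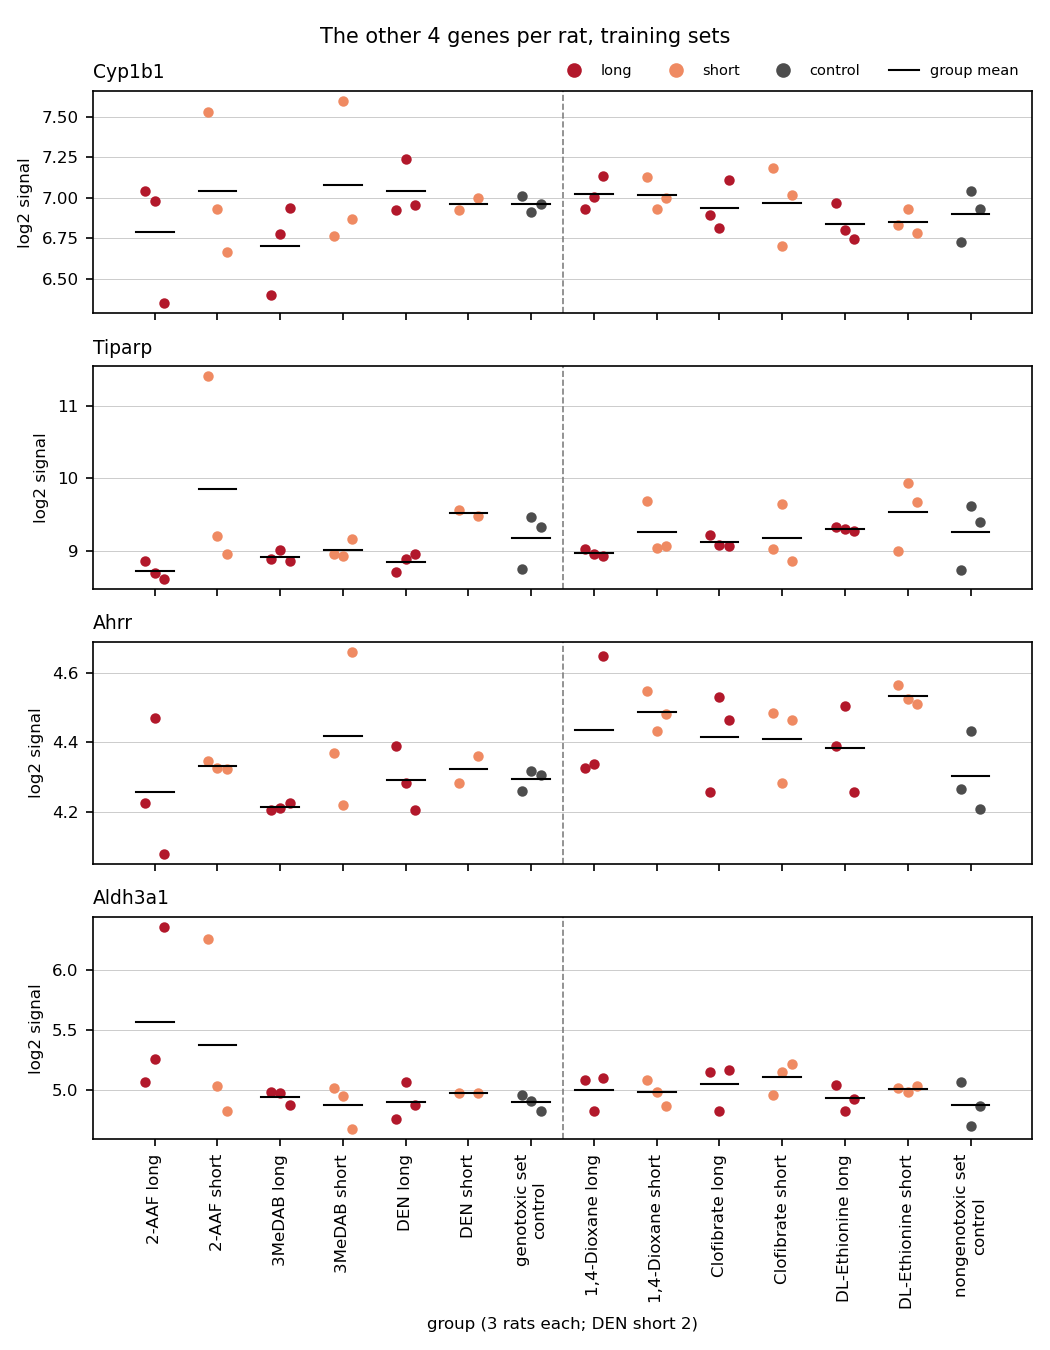
Log2 signal of Cyp1b1, Tiparp, Ahrr and Aldh3a1 in each rat of the genotoxic (left of the dashed line) and nongenotoxic (right) sets, with a bar at each group mean and a scale of its own for each gene. Rat 1 of 2-AAF short stands alone for Tiparp (11.4), and 2 rats given 2-AAF stand alone for Aldh3a1 (6.36 and 6.26).

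Counted over the 12 treated groups, in which 0.136% to 53.6% of all genes were called, the members gave 60 tests, of which 11 were called, 9 higher and 2 lower: 6 for Cyp1a1, 4 for Cyp1a2, 1 for Aldh3a1, and 0 for Cyp1b1 and Tiparp in limma, where 3 of the 49 uncalled tests had an unadjusted p under 0.05. Fitted on the compared groups' arrays alone, the count was 8.

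Pairs of compounds within a training set were compared at the same duration, without the control. Cyp1a1 stood higher in 2-AAF than in DEN by 6.45 ± 0.60 at the long and 5.39 ± 0.67 at the short duration, and higher in 3MeDAB than in DEN by 6.54 ± 0.60 and 4.94 ± 0.67 (largest adjusted p of the 4 = 5.95e-06). Between 2-AAF and 3MeDAB it differed by -0.09 ± 0.60 long and 0.45 ± 0.60 short, which did not pass (adjusted p = 0.908 and 0.803). Cyp1a2 did separate these 2 compounds at the long duration, being 0.62 ± 0.14 higher in 2-AAF (adjusted p = 0.000415), where 49.1% of all genes were called, and did not at the short duration (0.07 ± 0.14, adjusted p = 0.877, 1.79% called). Against DEN, Cyp1a2 was higher in 2-AAF by 1.94 ± 0.14 long and 0.55 ± 0.15 short, and in 3MeDAB by 1.32 ± 0.14 long and 0.48 ± 0.15 short. The shares of genes called were 31.1% and 12.2% for 2-AAF against DEN, and 49.3% and 14.5% for 3MeDAB against DEN. The calls of both short differences of Cyp1a2 were lost without some single rats, at adjusted p up to 0.187, and that of 3MeDAB also with the replicate number as a block (0.44, adjusted p = 0.0604). Aldh3a1 was higher in 2-AAF long than in DEN long (0.66 ± 0.24, adjusted p = 0.033) and 3MeDAB long (0.62 ± 0.24, adjusted p = 0.0318), and both calls were lost without rat 3 of 2-AAF long (0.27 and 0.22).

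Among nongenotoxic compounds, Cyp1a2 was 4.21 ± 0.14 higher in 1,4-Dioxane long and 4.46 ± 0.14 higher in Clofibrate long than in DL-Ethionine long (adjusted p = 2.23e-21 and 4e-22), with 55.6% and 55.5% of genes called. No short pair passed for any member, with 0.854% of genes called for 1,4-Dioxane and 1.03% for Clofibrate against DL-Ethionine. For Cyp1a1 the short differences were 1.26 ± 0.60 and 0.82 ± 0.60 in the same order (adjusted p = 0.339 and 0.625). Between 1,4-Dioxane and Clofibrate 0% of genes were called in limma at either duration, where 210 genes long and 1128 short had an unadjusted p under 0.05. Cyp1a1 differed there by 0.43 ± 0.60 at the short duration. In all, 13 of 60 member tests between compounds were called, where 0% to 55.6% of all genes were. The sign of each depends only on which compound is named first.

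Within a compound, the long group was set against the short one. Cyp1a1 did not pass in 2-AAF or 3MeDAB, at 0.43 ± 0.60 and 0.97 ± 0.60 (adjusted p = 0.606 and 0.162), with 35.8% and 59.3% of all genes called. Fitted on the 3MeDAB groups alone, the second passed (adjusted p = 0.0157), as did Cyp1a2, lower in the long group (-0.29, adjusted p = 0.0371, and 0.0464 in 1 fit of all arrays). Fitted on the DEN groups alone, Tiparp was lower in the long group (-0.67, adjusted p = 0.00469), a difference that did not pass otherwise (adjusted p = 0.2). In 1,4-Dioxane Cyp1a1 was lower at the long duration by -2.83 ± 0.60 (7.09-fold, adjusted p = 0.00405, 5.31% of genes called), with no overlap of rats. For Cyp1a1 Clofibrate showed -1.71 ± 0.60, which did not pass (adjusted p = 0.122, 3.47% called), and DL-Ethionine -0.97 ± 0.60 (adjusted p = 0.178, 51.6% called). Cyp1a2 was lower in the long groups of DEN (-1.13 ± 0.15, adjusted p = 1.26e-06, 30.3% called) and DL-Ethionine (-4.49 ± 0.14, adjusted p = 4.73e-22). Tiparp was lower in 2-AAF long, at 8.87, 8.70 and 8.62, than in 2-AAF short, by -1.13 ± 0.35 (adjusted p = 0.0114). That call rested on rat 1 of the short group: without it the difference was -0.35 (adjusted p = 0.267). Without the same rat Cyp1a2 (0.41) and Aldh3a1 (0.63) became called, higher in the long group (adjusted p = 0.0295 and 0.0162). Without rat 1 of 3MeDAB short, Cyp1b1 became called, lower in 3MeDAB long (-0.53, adjusted p = 0.031).

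In the test set, where no control exists, each compound was set against its own other duration and against the mean of the other 3 compounds. DCP long was the group that stood out. Its Cyp1a1 signal was 7.65, 8.10 and 7.24, against 4.32, 4.38 and 4.93 in DCP short and 4.20 to 5.21 in the long groups of ME, SN and Urethane. All 3 DCP long rats lay above every other rat of the test set, the nearest being rat 1 of ME short at 7.05. The difference was 3.12 ± 0.42 from DCP short (8.69-fold, adjusted p = 1.18e-05) and 2.89 ± 0.34 from the other compounds (7.39-fold, adjusted p = 3.56e-06). Of all genes 40% were called in the first comparison and 37.7% in the second. Cyp1a1 passed the level for testing (log2 5.65) only through 5 arrays of DCP long and ME short, the groups where it was high, so its calls are of a gene let in by those groups. With no such level required, the 2 adjusted p were 1.18e-05 and 3.28e-06.

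Cyp1a2 went the other way in the same livers. It was 11.6, 11.4 and 11.4 in DCP long, against 12.2, 12.4 and 12.3 in DCP short and 12.3 to 12.8 in the other long groups, with no overlap. The difference was -0.85 ± 0.11 from DCP short (adjusted p = 6.65e-06) and -1.08 ± 0.09 from the other compounds (adjusted p = 9.65e-08). Over the 24 test set arrays, which share these groups, Cyp1a1 and Cyp1a2 correlated at r = -0.60, as a description. Over the 41 training arrays r was 0.44, and 0.20 over the 29 arrays without 2-AAF and 3MeDAB. DCP short had slightly lower Cyp1a2 than the other short groups (-0.25 ± 0.09, adjusted p = 0.026, 42.1% of genes called), a call lost without DCP short rat 1 or rat 3 (adjusted p up to 0.164).

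The other test compounds gave smaller differences. ME short had 7.05, 5.66 and 4.38 for Cyp1a1, so 1 rat was near DCP long and another among the lowest of the set. The difference of 1.22 ± 0.34 from the other short groups (adjusted p = 0.031, 9.25% of genes called) was lost without rat 1, at 0.54 and adjusted p = 0.265, and without rat 2 (adjusted p = 0.0716). Urethane long was lower in Cyp1a1 (-1.32 ± 0.34, adjusted p = 0.0143, 13.8% called), ME long higher in Cyp1a2 (0.60 ± 0.09, adjusted p = 0.00143, 3.01% called) and SN long higher in Cyp1a2 (0.44 ± 0.09, adjusted p = 0.00814, 5.2% called), but in each of these the other 3 compounds included DCP. With DCP left out, a choice made after the values were seen, these became -0.41, 0.27 and 0.09 and none passed (adjusted p = 0.514, 0.216 and 0.804). Cyp1a2 of ME short, 0.34 ± 0.09 above the others (adjusted p = 0.0211), was 0.29 without DCP (adjusted p = 0.0954). Cyp1a1 of ME short was 1.26 without DCP and did not pass (adjusted p = 0.066), nor did it in 1 fit of all arrays (adjusted p = 0.0852). Urethane long showed lower Cyp1a2 than ME and SN without DCP (-0.35 ± 0.09, adjusted p = 0.0214). No member passed in SN short (14.3% of genes called) or Urethane short (7.73%) against the others.

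Tiparp separated durations in 3 of the 4 test compounds. It was 8.51, 8.40 and 8.50 in DCP long, against 8.85, 8.77 and 8.99 in DCP short, lower by -0.40 ± 0.09 (adjusted p = 0.00183). In ME it was 8.16, 8.10 and 8.24 long against 8.39, 8.40 and 8.77 short (-0.35 ± 0.09, adjusted p = 0.0142, 17% of genes called), and in SN 8.22, 8.10 and 8.22 long against 8.52, 8.58 and 8.64 short (-0.40 ± 0.09, adjusted p = 0.0188, 4.86% called). On this probe set the rats of the 2 durations did not overlap in any of the 3, and in Urethane they did (-0.04 ± 0.09, adjusted p = 0.803, 13.7% called). The second Tiparp probe set overlapped in ME (5.71 to 6.02 long, 5.83 to 6.66 short) and SN (5.48 to 6.42 long, 6.05 to 6.52 short). With the mean of a gene's probe sets the calls in ME and SN were lost (adjusted p = 0.0502 and 0.118). DCP short was also above the other short groups (0.35 ± 0.08, adjusted p = 0.000966), and DCP long above the other long ones (0.21 ± 0.08, adjusted p = 0.0311). With all 65 arrays in 1 fit none of these 5 Tiparp calls held (adjusted p 0.25 to 0.523), and those of ME, SN and DCP long against the others were also lost without some single rats (adjusted p up to 0.115). Cyp1b1 lay between 5.16 and 5.80 throughout, reached the level for testing in 3 arrays and passed in no comparison of the test set.

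**Figure D4:**
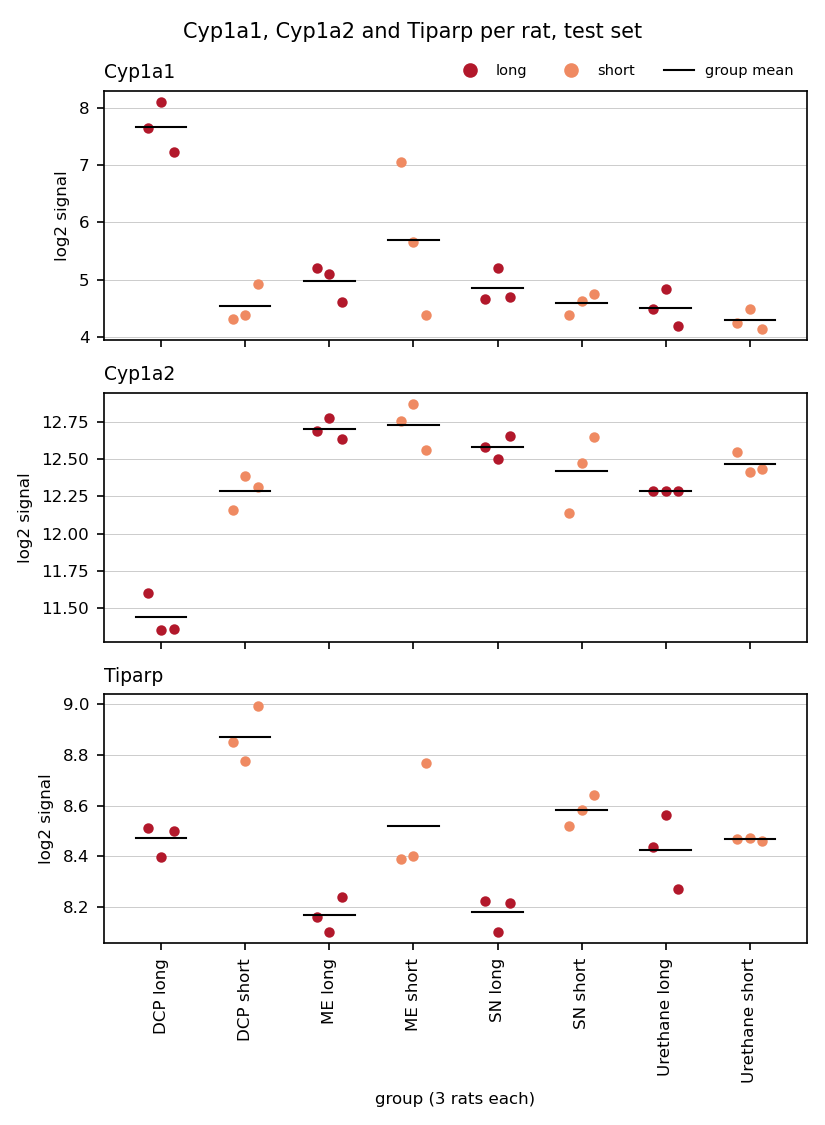
Log2 signal of Cyp1a1, Cyp1a2 and Tiparp in each rat of the test set, long left of short for each compound, with a bar at each group mean. DCP long stands highest for Cyp1a1 (7.24 to 8.10) and lowest for Cyp1a2 (11.4 to 11.6), and DCP short highest for Tiparp (8.77 to 8.99).

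Across durations 9 of 46 member tests were called, 1 higher (Cyp1a1 in DCP) and 8 lower in the long group, where 3.47% to 59.3% of all genes were called. In the test set 10 of 32 were called against the other compounds, 7 higher and 3 lower, where 3.01% to 42.1% of all genes were. These member counts include Cyp1a1 in the test set and Aldh3a1 in the training sets, which passed the level for testing only through groups where they were high.

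Of 7 genes of the receptor complex 5 have a probe set of their own and 4 were tested. Ahr itself, singled out after its values were seen, differed from control by 0.11 in 2-AAF long and -0.23 in 2-AAF short. It differed by -0.14 in 3MeDAB long and -0.10 in 3MeDAB short, and none of the 4 was called. Between treated groups Ahr was called higher in 2-AAF long than in 2-AAF short (0.34, 35.8% of all genes called) and 3MeDAB long (0.25, 49.1%). It was called lower in 3MeDAB long than in DEN long (-0.29, 49.3%). Against control, 1 of 4 of the complex was called in 2-AAF long (32.1% of all genes), the cochaperone gene Ptges3 (0.23 ± 0.09, adjusted p = 0.0444). In 3MeDAB long 2 of 4 were (53.6% of all genes), Ptges3 (0.41) and the chaperone gene Hsp90ab1 (0.54), both higher, in livers where the median of all genes stood 0.12 higher. In DL-Ethionine long Arnt2 fell by 0.23, 1 of 4 where 53.1% of all genes were called.

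Of 10 other AHR targets 7 have a probe set of their own and were tested. This list was chosen with earlier results of these data known, so its counts and medians are only a description. In 2-AAF long, where 32.1% of all genes were called, 4 of them rose and 1 fell, with a median of 0.79 against -0.0023 over all genes. They were Htatip2 (1.78 ± 0.25), Nqo1 (1.49 ± 0.24), a quinone reductase gene that NRF2 controls too, the amino acid carrier gene Slc7a5 (1.00 ± 0.24) and Ugdh (0.79 ± 0.12), which makes UDP-glucuronate. The purine enzyme gene Xdh fell (-0.59 ± 0.17). In 3MeDAB long, where 53.6% of all genes were called, the same 4 rose, together with Nfe2l2, the gene of NRF2 itself (1.06 ± 0.23), and Xdh fell again. The median there was 1.02, against 0.122 over all genes. At the short duration none of the 7 passed in either compound, although Cyp1a1 had already risen, with medians of -0.24 in 2-AAF and -0.0067 in 3MeDAB. DEN raised Nfe2l2 in the short group (1.09 ± 0.26) and none in the long one. DL-Ethionine long raised Nfe2l2 (1.18 ± 0.23) and Htatip2 (0.67 ± 0.25) without Cyp1a1. 1,4-Dioxane and Clofibrate moved none at either duration, also in the short groups with raised Cyp1a1. In DCP long, where Cyp1a1 was highest, 3 of 6 tested were lower than in the other compounds (Htatip2 -0.47, Ugdh -0.41, Xdh -0.30), with 37.7% of all genes called. In DCP short, where Cyp1a1 did not pass, 4 of 6 were higher (Htatip2 1.08, Nfe2l2 0.76, Nqo1 0.72, Ugdh 0.52) and Xdh was lower (-0.60), with 42.1% called. In ME short Htatip2 (-0.39) and Ugdh (-0.28) were lower and Xdh was higher (0.40), with 9.25% called. Htatip2 was also lower in SN short (-0.44, 14.3% called), and Nfe2l2 in Urethane short (-0.60, 7.73% called). In SN long Nqo1 (-0.93) and Nfe2l2 (-0.66) were lower, with 5.2% called, and in ME long Nfe2l2 was (-0.61, 3.01% called). In Urethane long 4 of 6 were higher (13.8% of all genes called), among them Nqo1 (1.18 ± 0.21) and Nfe2l2 (0.90 ± 0.15). The lower Cyp1a1 of Urethane long did not pass with DCP left out (-0.41, adjusted p = 0.514). In these ME, SN and Urethane comparisons the other compounds included DCP, and values without DCP are given for the members only.

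**Figure D5:**
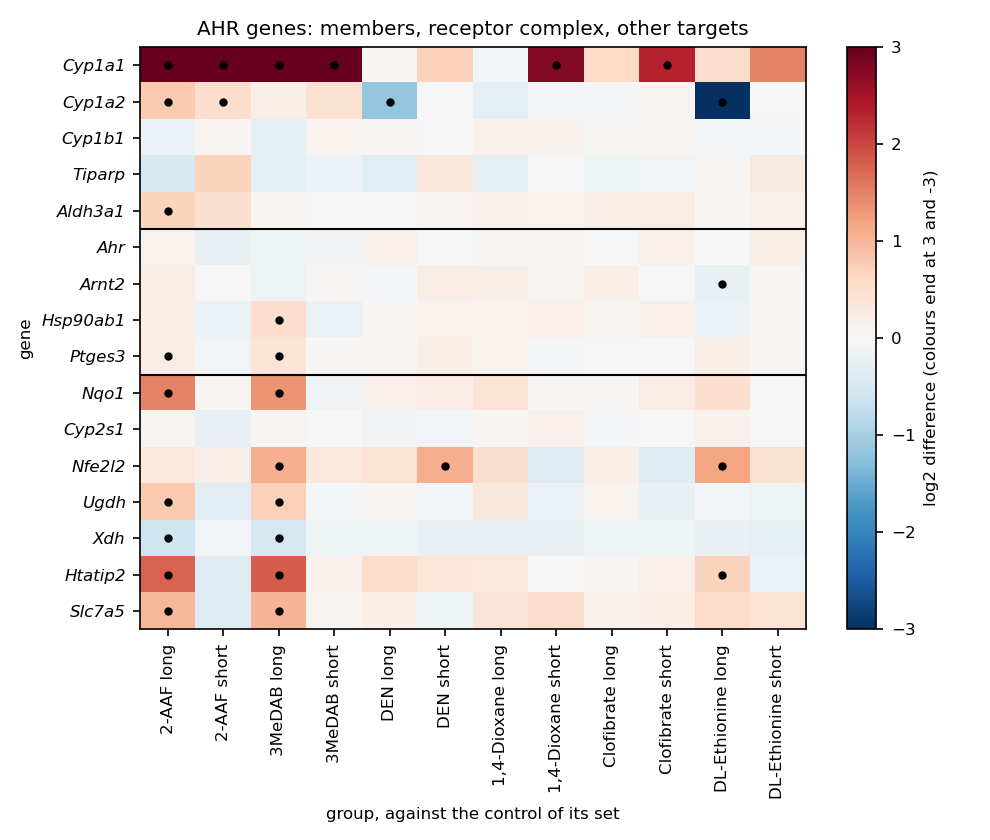
Log2 difference from the control of the same set, by colour, for the 5 tested members (top block), 4 tested genes of the receptor complex (middle) and 7 tested other AHR targets (bottom) in the 12 treated groups, with a dot where adjusted p was under 0.05. Cyp1a1 is called in 6 groups, and the other targets are called mainly in 2-AAF long and 3MeDAB long.

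Cyp1a2 is a gene of hepatocytes near the central vein, so 7 other genes of that zone were counted beside it. In DL-Ethionine long, where 53.1% of all genes were called, 3 of 7 were lower, the secreted ribonuclease gene Rnase4 (-2.55 ± 0.31), the ornithine aminotransferase gene Oat (-1.63 ± 0.32) and the glutamate carrier gene Slc1a2 (-1.45 ± 0.32), and Cyp2e1 was higher (0.35 ± 0.08). In DEN long (16.7% of all genes) Oat (-2.55 ± 0.32) and Slc1a2 (-1.54 ± 0.32), 2 of 7, were lower. In DCP long (37.7%), against the other compounds, 3 of 6 were lower, Oat (-1.77 ± 0.19), Slc1a2 (-1.75 ± 0.17) and Rnase4 (-0.12 ± 0.05). In 3MeDAB long (53.6%) 6 of 7 were lower while Cyp1a2 did not pass, and in 2-AAF long (32.1%) Oat (-2.95 ± 0.32) and Glul (-1.11 ± 0.23), glutamine synthetase, were lower while Cyp1a2 was higher. Markers of other cells moved in the same livers: in DL-Ethionine long 6 of 6 macrophage markers were higher, with a mean level of 11.2 to 11.5 per rat against 9.63 to 9.97 in the control, and 4 of 4 endothelial ones (10.1 to 10.2 against 9.03 to 9.41). In DEN long 4 of 6 macrophage markers were higher (10.8 to 10.9 against 10.1 to 10.3). In 3MeDAB long 5 of 6 were higher (10.6 to 11.0) and in 2-AAF long 5 of 6 lower (9.45 to 9.82) than in that control. The Gapdh 3' minus 5' difference was 0.24 to 0.39 in 3MeDAB long and 0.19 to 0.95 in 2-AAF long, against 0.44 to 0.63 in the control. The 5 hepatocyte markers stood at 14.2 to 14.3 in DL-Ethionine long against 14.2 to 14.3 in its control, and at 14.1 to 14.2 in DEN long and its control alike. In DCP long 4 of 4 endothelial markers and 1 of 6 macrophage markers were higher than in the other compounds. The part of these cells and of RNA quality in the differences of Cyp1a2 and of its zone was not tested.

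By a fixed rule, the 5 genes whose signal followed Cyp1a1 most closely over the 41 training arrays were Rhbdd2 (r = 0.82), Pla2g12a (0.79), Pick1 (0.79), Ccdc6 (0.77) and Golga5 (0.74). These are correlations over arrays that share groups and controls, given as a description. Over the 29 arrays without 2-AAF and 3MeDAB they were 0.66, 0.59, 0.14, 0.54 and 0.42, and over the 24 test set arrays none exceeded 0.16. No other member was among the 5: Cyp1a2 stood at 0.44, Aldh3a1 at 0.41 and Tiparp at 0.07.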

How the data were processed

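Liver RNA of 65 rats was hybridised to Affymetrix arrays. The authors deposited log2 signals of 31099 probe sets, made with RMA and with 1 failed file left out, per the series' design text. The version of RMA is not given in the sources used here. Arrays have no read depth, and the number of rats limits the precision.

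Gene names came from the platform annotation: 20826 probe sets carry 1 symbol, 436 several, and 57 control probe sets were left out. The probe set with the highest mean stood for each of 14217 genes. Testing required at least 2 arrays with a signal over the median signal, which was log2 6.03 in the training sets and 5.65 in the test set. The model of group means used limma 3.58.1 in R 4.3.3, the training sets together (41 arrays, 11007 genes) and the test set alone (24 arrays, 10213 genes), with two-sided tests and Benjamini-Hochberg adjustment within a comparison. The fit was tested on simulated data. Promoters were read from RefSeq (GRCr8). Figures used Python 3.11.15, matplotlib 3.10.9 and pandas 2.3.3.

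The members and the gene lists were chosen with earlier results of these data known. Named genes were the members, the list genes that were called, and the 5 tested genes with the highest r to Cyp1a1. Alternatives were no or a stricter filter (log2 7.99), the mean or each of a gene's probe sets, trend and robust, quantile normalization, only the compared groups, 1 fit of all arrays, each training set alone, a replicate block and each rat left out. Leaving DCP out of the other test compounds was added after seeing the data. Of 30 comparisons with 3 same-numbered pairs of rats, every pair deviated together (r over 0.1) in 1, 3MeDAB long against its control, where r was 0.11 to 0.182 and the block changed no member's call. Of 4 with 2 pairs this held in 1, 2-AAF short against DEN short (0.146 and 0.22), too few pairs to count as paired.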

Additional observations from a re-analysis of the deposited data

Results flagged for a closer look

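Compounds of the same training set differed in 13 member results, and each difference was tested in its own right between the compounds. Cyp1a1 was higher in 2-AAF than in DEN by 6.45 at the long and 5.39 at the short duration, and higher in 3MeDAB than in DEN by 6.54 and 4.94. Cyp1a2 was higher in 2-AAF than in DEN by 1.94 long and 0.546 short, higher in 3MeDAB than in DEN by 1.32 long and 0.478 short, and higher in 2-AAF than in 3MeDAB by 0.623 long. It was higher in 1,4-Dioxane long and Clofibrate long than in DL-Ethionine long by 4.21 and 4.46. Aldh3a1 was higher in 2-AAF long than in DEN long by 0.664 and than in 3MeDAB long by 0.621, both of which were lost without rat 3 of 2-AAF long. Aldh3a1 entered the test only through 2 rats given 2-AAF, and with every gene tested these 2 adjusted p were 0.0387 and 0.0367. With every probe set tested and no filter, the Aldh3a1 call against DEN long was lost (adjusted p = 0.0563). Both Aldh3a1 calls were lost with only the compared groups (adjusted p = 0.203 and 0.15) and with each training set alone (0.127 and 0.11). All 13 are log2 differences called by limma over all genes.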

How the results depend on the processing

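Of 43 called member results, none changed direction under the alternatives tried. Calls were lost in 12 with only the compared groups in the fit, 6 with 1 fit of all arrays and 3 with every probe set and no filter. Each training set alone lost 3 of 28, the mean of all probe sets 2, quantile normalization 2 and a replicate block 1. No filter lost 0, as did trend and robust. The stricter filter left 36 of the 43 in the test, and 0 of these 36 were lost. With DCP left out of the other test compounds, 5 of 5 called results were lost. With 1 rat left out, 46 of 313 were lost. The counts of called member tests stayed within 1.5 times under the alternatives other than leaving DCP out, which these ranges do not include. Treated against control gave 11 (8 to 11, and 9 to 11 with 1 rat left out) and pairs of compounds 13 (10 to 13, and 11 to 13). Long against short gave 9 (7 to 10, and 8 to 11) and test compounds 10 (7 to 12, and 8 to 13). With the replicate block they were 11, 12, 9 and 10. The lost call was Cyp1a2 in 3MeDAB short against DEN short. Replicate numbers correlated between -0.452 and 0.231. Over the test set the correlation of Pick1 with Cyp1a1 was -0.237. With no filter, Aldh3a1 was called lower in DCP long (-0.36, adjusted p = 0.0237) and Ahrr higher in DCP short (0.31, adjusted p = 0.0275) than in the other compounds. The number of all genes called moved by over 1.5 times under some alternative in 27 of 42 comparisons, 26 of them with only the compared groups: 2-AAF long against control had 3538 genes, and 1214 so, 3MeDAB short 101 and 5, DL-Ethionine short 567 and 13. The median of all genes in 3MeDAB long against control was 0.122, and 0.0359 after quantile normalization. The causes were not tested.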
